A study of Mus musculus with 91 samples.

Results

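The miR-17-92 cluster is a group of microRNAs (miRNAs, short RNAs that silence matching messenger RNAs) cut from 1 primary transcript. 9 of its mature miRNAs, here called the members, were taken by name out of 1504 listed in the counts of mature miRNAs. Of these 1504, 1479 had at least 1 count. The members were followed through 91 small RNA libraries in 26 groups. The main body of 62 libraries in 16 groups came from mouse embryos at E6.5 and E7.5, dissected into extraembryonic ectoderm (Exe, which contributes to the placenta) and epiblast (Epi, which forms the embryo proper). The zygotes came from B6D2F1 females mated to males of C57BL/6J background with an Oct4-EGFP transgene. Each tissue and stage had 4 genotypes (Control, Dnmt-null, Dnmt1-KO and Dnmt3a/3b-DKO), with 4 libraries a group and 3 for the Control and Dnmt-null groups of E7.5 Epi. Dnmt1 maintains DNA methylation, and Dnmt3a and Dnmt3b place it. The mutations were stop codons written into zygotes by base editing, so that the mutant embryos are injected embryos and not a bred line, and Dnmt-null lacks all of Dnmt1, Dnmt3a and Dnmt3b.

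The remaining libraries were made from androgenetic haploid embryonic stem cells (AG-haESCs, which carry only a sperm genome and were kept in Lif and 2 kinase inhibitors) and from semi-cloned (SC) embryos, which form when such a cell is injected into an oocyte in place of sperm. The AG-haESC groups were WT, O48 and 408 with 3 libraries each, and Mir-6KO with 2. According to the study's methods, O48 was the line transfected to delete miRNAs and single-cell clones were expanded from it. The study made these deletions in DKO-AG-haESCs, in which the H19 and IG imprinting control regions are deleted. By that account both O48 and Mir-6KO lack the H19 and IG regions. Mir-6KO carries deletions of let-7b and 5 miRNAs of the imprinted Dlk1-Dio3 region. What the 408 libraries are was not given by the labels, and they entered no test. The SC groups had 3 libraries each: WT, Dnmt-null, DKO (here the deletion of the imprinting control regions, not of Dnmt3a and Dnmt3b) and DKO;Dnmt-null at E6.5, and control and Mir-6KO;Dnmt-null at E7.5. The study made both E7.5 SC groups with DKO-AG-haESCs, so the control also carries the deletions of the imprinting control regions. Its figure legends describe the E6.5 WT, Dnmt-null and DKO SC samples as epiblast and name no tissue for the E7.5 SC groups.

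The cluster, also called Oncomir-1, is switched on by Myc and E2F factors, and its miRNAs are known for promoting proliferation and survival in embryos and tumours. Its miRNAs fall into a few families by their seed, bases 2 to 8, which decides most of target choice. miR-17 and miR-20a target the CDK inhibitor p21 and E2F1, and miR-92a acts on integrin alpha 5 and Bim. Loss of the cluster in mice is lethal around birth.

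The 6 hairpins lay on chromosome 14, plus strand, of GRCm38 within 836 bases, chr14:115043671-115044506, in the order Mir17, Mir18, Mir19a, Mir20a, Mir19b-1 and Mir92-1. All 6 sat inside exon 2 (chr14:115043271-115046727) of the long non-coding gene Mir17hg. Identical mature miR-19b-3p and miR-92a-3p also come from Mir19b-2 and Mir92-2 on chromosome X, minus strand (chrX:52741983-52742066 and chrX:52741838-52741928), so the counts of these 2 members cannot be split between the loci. The mature sequences of all members, from RefSeq (GRCm38.p6), are shown because shared seeds and near-identical sequences decide which members a read can be told apart from, with the seed in capitals:
mmu-miR-17-5p: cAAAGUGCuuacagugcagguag
mmu-miR-20a-5p: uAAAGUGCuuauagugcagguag
mmu-miR-18a-5p: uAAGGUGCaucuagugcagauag
mmu-miR-19a-3p: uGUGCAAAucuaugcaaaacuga
mmu-miR-19b-3p: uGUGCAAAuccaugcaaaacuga
mmu-miR-92a-3p: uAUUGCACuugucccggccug
mmu-miR-17-3p: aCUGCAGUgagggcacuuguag
mmu-miR-18a-3p: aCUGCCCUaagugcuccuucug
mmu-miR-20a-3p: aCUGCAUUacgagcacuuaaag

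mmu-miR-17-5p and mmu-miR-20a-5p share the seed AAAGUGC and differ by C1U and C12U (base of the first, position from the 5′ end, base of the second). mmu-miR-19a-3p and mmu-miR-19b-3p share GUGCAAA and differ by U11C. The seeds AAAGUGC and AUUGCAC also occur in miRNAs of the paralogous clusters on chromosomes X and 5, whose closest members are shown for comparison:
mmu-miR-106a-5p: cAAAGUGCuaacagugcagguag
mmu-miR-20b-5p: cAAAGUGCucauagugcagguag
mmu-miR-363-3p: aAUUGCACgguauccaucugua
mmu-miR-25-3p: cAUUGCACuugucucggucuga

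mmu-miR-106a-5p is 1 base from mmu-miR-17-5p (U10A) and mmu-miR-20b-5p is 2 bases from mmu-miR-20a-5p (U1C and U10C). Counts of such near-identical neighbours are uncertain where the mapping could split reads between them. The seeds of mmu-miR-18a-3p and mmu-miR-20a-3p occurred in no other miRNA of the 3 clusters.

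Library depth was 65751 to 418423 counts for E6.5 Exe and 45242 to 600821 for E6.5 Epi. The E7.5 dissected libraries held 266379 to 2394918 counts and the AG-haESC and SC libraries 154061 to 26970637, so E6.5 values carry the most counting error. 4 libraries stood apart from their group (median Pearson r of log2 values under 0.7), namely E6.5 Exe Control 1, E6.5 Exe Dnmt1-KO 3, E6.5 Epi Dnmt3a/3b-DKO 2 and E6.5 Epi Dnmt-null 1. Only some of the results that include them are also given without them. Tissue markers were present in Control: the summed miR-302/367 list (epiblast) was 130389 to 212606 CPM (counts scaled by the library total) in Epi and 17588 to 45944 CPM in Exe, and the Sfmbt2 intronic list (trophoblast) 40568 to 65734 CPM in Exe and 1815 to 23464 CPM in Epi. The libraries labelled Mir-6KO AG-haESC went against their label. Their miR-302/367 list summed to 239331 and 268002 CPM against 924 to 1670 CPM in O48, and over 645 miRNAs their median r was 0.846 with E7.5 Epi Control and 0.558 with O48. Replicate 3 of E6.5 SC WT also differed from its group, with 21252 CPM of that list against 195381 and 214514.

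mmu-miR-92a-3p, whose counts hold both of its loci, carried nearly all counts of the 9 members. Together the 9 members took 15.7% ± 1.1 (SD, n = 3) of all miRNA counts in E7.5 Epi Control, the highest of the 26 group means, and 2.29% ± 0.199 (SD, n = 3) in O48 AG-haESCs, the lowest. Next came the E7.5 Epi mutants, at 12.8% (Dnmt3a/3b-DKO), 11% (Dnmt1-KO) and 10.2% (Dnmt-null), with E6.5 Epi Dnmt3a/3b-DKO at 10.9% among them. E6.5 Epi Control at 8.14% ± 0.563 (SD, n = 4) and E7.5 Exe Control at 8.07% ± 0.778 (SD, n = 4) were neighbours that did not differ beyond their spread, with E7.5 SC control close above at 8.57% ± 0.0449 (SD, n = 3). E6.5 Exe Control stood at 6.53% ± 1.36 (SD, n = 4), the 4 E6.5 SC groups at 3.39% to 4.71%, and the WT and 408 AG-haESCs at 2.48% and 3.18%. mmu-miR-92a-3p made up 92.9% to 98.5% of the members' counts in the embryo groups and 86.9% to 89.0% in the WT, 408 and O48 AG-haESCs. No molecular identifiers are stated, so these are shares of reads.

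**Figure D1:**
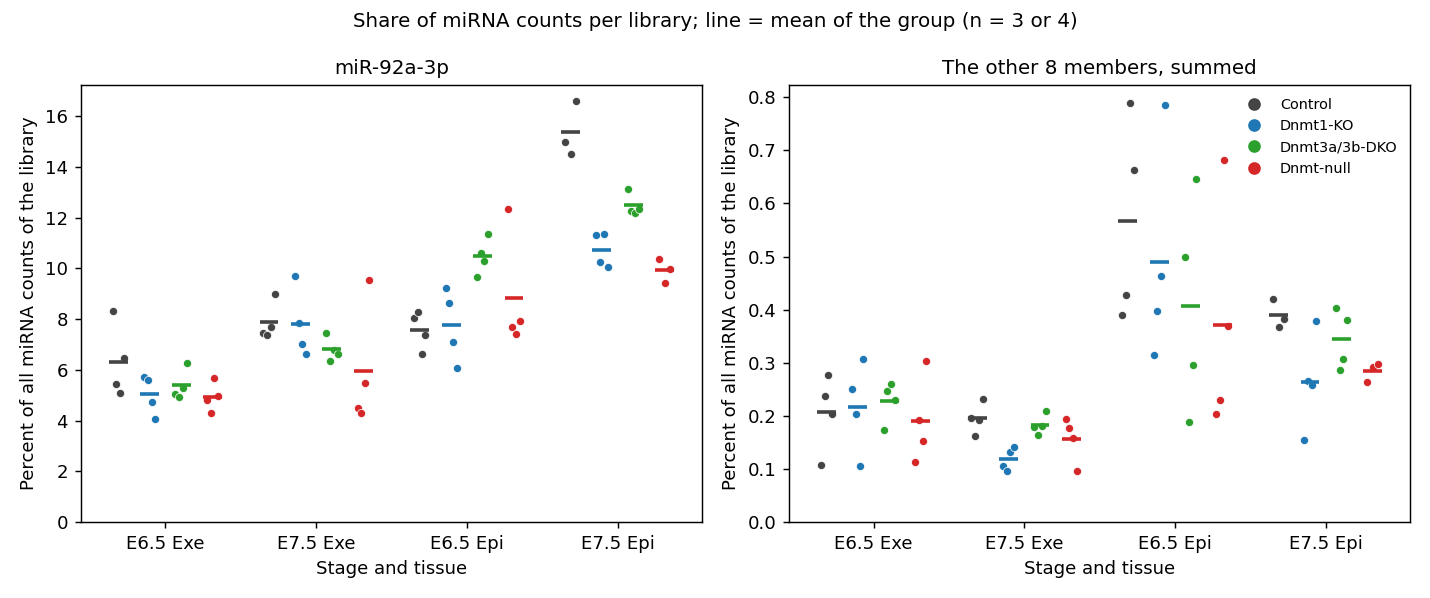
Percent of all miRNA counts of a library (y axis, from 0) taken by mmu-miR-92a-3p (left) and by the other 8 members summed (right), by stage and tissue (x axis), with 1 point a library coloured by genotype and a line at the group mean. For mmu-miR-92a-3p the E7.5 Epi Control libraries lie between 14.5% and 16.6%, above the 9.41% to 13.1% of the E7.5 Epi mutants.

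The other 8 members together took 0.567% of counts in E6.5 Epi Control, 0.390% in E7.5 Epi Control, 0.207% in E6.5 Exe Control and 0.196% in E7.5 Exe Control. Among them mmu-miR-17-5p had the highest mean in all 4 Control groups. mmu-miR-20a-5p came next at E6.5 and mmu-miR-20a-3p at E7.5. mmu-miR-18a-5p and mmu-miR-19a-3p were the lowest and had 3 or fewer counts in 21 and 16 of the 91 libraries. Over the 16 Exe and Epi group means, the 36 pairs of members had Pearson r of log2 CPM between 0.28 (mmu-miR-18a-3p and mmu-miR-19a-3p) and 0.90 (mmu-miR-92a-3p and mmu-miR-17-3p), with a median of 0.69. These means share libraries and depth, and no test was made.

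The first comparison asked how the members differ between Exe and Epi in Control embryos. At E6.5 mmu-miR-17-5p measured 502, 971, 975 and 1048 CPM in Exe and 1628, 2038, 3559 and 2949 CPM in Epi. The tissues did not overlap, with a log2 fold change of Exe over Epi of -1.61 ± 0.29 (SE) and adjusted p = 0.000378. mmu-miR-20a-5p measured 183, 489, 732 and 198 CPM in Exe and 814, 857, 2339 and 1822 CPM in Epi, again without overlap (-1.92 ± 0.45, SE, adjusted p = 0.00376). mmu-miR-19b-3p measured 0, 216, 188 and 102 CPM in Exe and 374, 306, 550 and 558 CPM in Epi. All Exe libraries were below all Epi libraries (-1.84 ± 0.55, SE, adjusted p = 0.0162). In Exe Control 1 a count of 0 allows up to 45.6 CPM (3 counts, counting error only).

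mmu-miR-20a-3p, at 0 to 520 CPM in Exe and 423 to 728 CPM in Epi, overlapped. It passed the call thresholds of the study (absolute log2 fold change above 0.5 and unadjusted p under 0.05) at -1.37 but not adjustment (adjusted p = 0.0760), and it lost the call without Exe Control 2, Exe Control 4 or Epi Control 3 (-1.24, -1.30 and -1.20). Thus 4 of 9 members were called lower in Exe and 0 higher, where 39.6% of the 558 miRNAs tested were called. All 9 estimates lay below 0 with a median of -1.37, beside -0.16 over all miRNAs tested. mmu-miR-92a-3p measured 83010.1, 54455, 51051 and 64606 CPM in Exe and 80255, 82740, 66115 and 73630 CPM in Epi. The shallow Exe Control 1 library was the highest of all 8, and the estimate of -0.33 ± 0.15 (SE) did not pass. mmu-miR-17-3p (-0.36), mmu-miR-18a-5p (-0.90), mmu-miR-18a-3p (-0.21) and mmu-miR-19a-3p (-2.22) did not pass either.

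At E7.5 mmu-miR-92a-3p differed between the tissues. It measured 74617, 73859.7, 76736 and 89928 CPM in Exe and 149714, 145108 and 165982 CPM in Epi. Every Epi library was above every Exe library (Exe over Epi -1.05 ± 0.16, SE, adjusted p = 3.43e-05). mmu-miR-17-5p measured 844, 606, 791 and 993 CPM in Exe and 1574, 1656 and 1366 CPM in Epi, without overlap (-1.01 ± 0.30, SE, adjusted p = 0.0135). mmu-miR-20a-5p measured 272, 209, 327 and 200.2 CPM in Exe and 763, 553 and 458 CPM in Epi, also without overlap (-1.32 ± 0.46, SE, adjusted p = 0.0314). Without Epi Control 1 the mmu-miR-20a-5p estimate was -1.07 and no longer called.

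mmu-miR-19b-3p (-1.18, adjusted p = 0.111) and mmu-miR-20a-3p (-1.28, adjusted p = 0.106) passed before adjustment, and both lost the call without Exe Control 2 (-1.16 and -1.25) or Epi Control 1 (-1.11 and -1.27). Hence 5 of 9 members were called lower in Exe at E7.5 and 0 higher, against 40.5% called of all miRNAs. The member median was -1.05 and that of all miRNAs 0.00. mmu-miR-17-3p (-0.82), mmu-miR-18a-5p (-1.30), mmu-miR-18a-3p (-0.75) and mmu-miR-19a-3p (-0.87) did not pass. Labels do not say that libraries of a group came from separate litters, so every p measures only the spread between these libraries. In bulk tissue, fewer cells of a type and less of the miRNA per cell cannot be told apart.

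**Figure D2:**
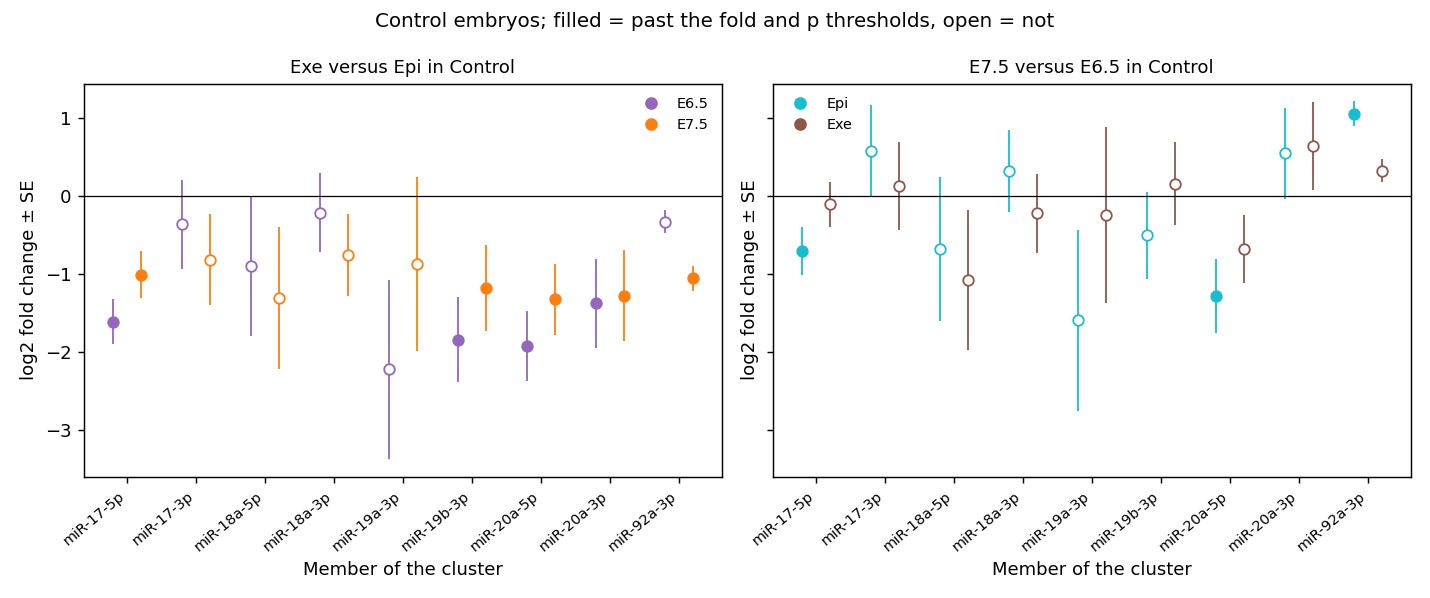
log2 fold changes with standard errors (y axis) of each member (x axis) in Control embryos, for Exe over Epi at each stage and for E7.5 over E6.5 in each tissue. Filled points passed the fold and p thresholds, with mmu-miR-17-5p, mmu-miR-19b-3p and both strands of miR-20a filled below 0 at both stages for Exe over Epi, and mmu-miR-92a-3p filled at E7.5.

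Between the stages 3 of the 9 members were called in Epi, and 1 of them passed adjustment. mmu-miR-92a-3p rose from 66115 to 82740 CPM at E6.5 to 145108 to 165982 CPM at E7.5 (1.06 ± 0.16, SE, adjusted p = 6.46e-05). mmu-miR-17-5p (-0.71 ± 0.31, SE, adjusted p = 0.0981) and mmu-miR-20a-5p (-1.28 ± 0.47, SE, adjusted p = 0.0532) fell by the call thresholds but not after adjustment. Leaving out E6.5 Epi Control 3, the library highest in both, ended both calls (-0.51 and -0.96), as did leaving out E7.5 Epi Control 2 or 3. The mmu-miR-17-5p call also ended without E6.5 Epi Control 4 (-0.60) or E7.5 Epi Control 1 (-0.74). Markers moved with stage in Epi Control: from E6.5 to E7.5 the trophoblast list went from 5808 to 23464 CPM to 1815 to 2299 CPM, the embryonic stem cell list from 59287 to 63256 CPM to 14449 to 14924 CPM, and the epiblast list from 130389 to 200354 CPM to 202279 to 212606 CPM. Their part in the members' values was not tested. In Epi 1 member was higher and 2 lower against 35.3% called of all miRNAs. In Exe 0 of 9 passed by edgeR or DESeq2 against 25.3%, and mmu-miR-92a-3p, the only member there with an unadjusted p under 0.05, was at 0.33 (adjusted p = 0.165). Without E6.5 Exe Control 1, which stood apart, mmu-miR-92a-3p was at 0.50 and called.

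Whether the tissue difference itself changed with stage was tested as an interaction, called for 1 member against 26.7% of all miRNAs. This was mmu-miR-92a-3p, whose Exe over Epi log2 ratio was lower at E7.5 by -0.73 ± 0.22 (SE, adjusted p = 0.0329). The call rested on the scaling. When the TMM factors left out 109 miRNAs of the imprinted Dlk1-Dio3 region, the value was -0.13 and no longer called, while mmu-miR-17-5p was called instead (1.23), and the median of all miRNAs moved from 0.61 to 1.23. The share of called miRNAs that were higher moved from 77.9% to 94.5% for the interaction, from 47.1% to 29.3% for Exe over Epi at E6.5, from 37.6% to 20.7% for stage in Epi and from 64.5% to 74.8% for stage in Exe. Under that scaling mmu-miR-17-5p (-0.88), mmu-miR-20a-5p (-1.18) and mmu-miR-92a-3p (-0.93) were still called for Exe over Epi at E7.5, the Epi rise of mmu-miR-92a-3p was 0.60, and mmu-miR-92a-3p was also called at E6.5 (-0.80).

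Ratios of members within a library do not depend on scaling between libraries. The log2 ratio of mmu-miR-92a-3p to mmu-miR-17-5p in Epi was 4.96 ± 0.64 (SD, n = 4) at E6.5 and 6.65 ± 0.25 (SD, n = 3) at E7.5, without overlap. The ratio of mmu-miR-20a-3p to mmu-miR-20a-5p was higher at E7.5 in every library than at E6.5, by 1.72 in Epi and 2.21 in Exe on the log2 scale, where the Exe value includes Exe Control 1 with 0 counts of the 3p strand. Of 40 such ratios in Control, 7 had groups that did not overlap. Each reached the smallest two-sided p that the exact permutation test allows for these group sizes, p = 0.0286, and none passed after adjustment over the 40 (adjusted p = 0.163). A ratio at this smallest p passes adjustment only if many of the 40 reach it together, so the adjusted values cannot decide whether a ratio differed.

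The Dnmt mutants were compared with Control to ask how the members respond to loss of DNA methylation, and most calls fell in E7.5 Epi. mmu-miR-92a-3p measured 149714, 145108 and 165982 CPM in E7.5 Epi Control and 103725, 94137 and 99923 CPM in Dnmt-null. All Dnmt-null libraries were below all Control libraries (-0.86 ± 0.10, SE, adjusted p = 5.17e-06). In Dnmt1-KO it measured 113025, 102500, 113620 and 100335 CPM, also without overlap (-0.70 ± 0.09, SE, adjusted p = 3.06e-05). In Dnmt3a/3b-DKO it measured 131401, 122733, 121746 and 123214 CPM, below Control in every library, but -0.39 ± 0.09 (SE) was smaller than the fold threshold (adjusted p = 0.00934).

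mmu-miR-17-5p, at 1574, 1656 and 1366 CPM in E7.5 Epi Control, was 1110.4, 1086 and 932 CPM in Dnmt-null and 629, 1182, 828 and 1528 CPM in Dnmt1-KO. It fell in both (-0.79 ± 0.25, SE, adjusted p = 0.0242, and -0.75 ± 0.23, SE, adjusted p = 0.0361), with 1 Dnmt1-KO library inside the Control range. Its other strand mmu-miR-17-3p was 323, 257 and 283 CPM in Control, 187, 129 and 193 CPM in Dnmt-null and 244, 104, 309 and 153 CPM in Dnmt1-KO. It fell in Dnmt-null without overlap (-0.99 ± 0.36, SE, adjusted p = 0.0441), a call that ended without Dnmt-null 2 (-0.78). In Dnmt1-KO it passed before adjustment (-0.69, adjusted p = 0.172) and lost that call without any 1 of 5 libraries.

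mmu-miR-18a-3p measured 289, 198 and 352 CPM in E7.5 Epi Control, 122, 141, 105 and 198 CPM in Dnmt1-KO and 238, 166 and 161 CPM in Dnmt-null. mmu-miR-20a-3p measured 761, 689 and 927 CPM in Control, 221, 481, 445 and 624 CPM in Dnmt1-KO and 429, 592 and 678 CPM in Dnmt-null. Both fell in Dnmt1-KO (-1.18 ± 0.32, SE, adjusted p = 0.0164, and -1.04 ± 0.28, SE, adjusted p = 0.0176). In Dnmt-null they passed before adjustment (-0.81 and -0.72, adjusted p = 0.0831 and 0.0818), and each lost the call without 1 of several libraries. mmu-miR-19b-3p (-0.52 in Dnmt-null and -0.64 in Dnmt1-KO), mmu-miR-19a-3p (-0.34 and 0.42), mmu-miR-20a-5p (-0.40 and -0.52) and mmu-miR-18a-5p (-0.24 and -0.93) did not pass in either.

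Of the 9 members, 5 were called lower and 0 higher in E7.5 Epi Dnmt-null, against 40.5% called of all 652 miRNAs tested, and 5 in Dnmt1-KO, against 25.0%. Dnmt3a/3b-DKO had 0 called by edgeR or DESeq2 against 17.8%, with 1 member, mmu-miR-92a-3p, at an unadjusted p under 0.05. There mmu-miR-17-3p was at -0.60, mmu-miR-20a-3p at -0.50, mmu-miR-18a-3p at -0.43 and the other 5 members between -0.25 and 0.10. Member medians were -0.72, -0.70 and -0.25 for Dnmt-null, Dnmt1-KO and Dnmt3a/3b-DKO, beside -0.19, -0.15 and 0.02 over all miRNAs. Several of these calls depended on the scaling. When the TMM factors left out the Dlk1-Dio3 miRNAs, the median of all miRNAs moved to 0.13 in Dnmt-null and 0.17 in Dnmt1-KO, and the share of called miRNAs that were higher moved from 49.2% to 65.2% and from 54% to 79.5%. 1 member was then called in Dnmt-null (mmu-miR-92a-3p, -0.53) and 2 in Dnmt1-KO (mmu-miR-18a-3p, -0.85, and mmu-miR-20a-3p, -0.71), with mmu-miR-92a-3p at -0.39 in Dnmt1-KO. With Dlk1-Dio3 counts left out of the total, the members' share was 18.2% in Control, 15.1% in Dnmt3a/3b-DKO, 14.3% in Dnmt1-KO and 13.3% in Dnmt-null.

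Markers moved with the genotype in E7.5 Epi. The 5 epiblast miRNAs summed to 202279 to 212606 CPM in Control, 135939 to 200375 CPM in Dnmt1-KO and 105333 to 164935 CPM in Dnmt-null. The 8 trophoblast miRNAs summed to 1815 to 2299 CPM in Control, 2758 to 3888 CPM in Dnmt1-KO and 3806 to 7697 CPM in Dnmt-null. The 5 embryonic stem cell miRNAs summed to 14449 to 14924, 17313 to 26654 and 23112 to 29600.0 CPM in the same order. None of these markers was at 3 or fewer counts in every library of a group, and their part in the members' values was not tested. Between Control and Dnmt-null the lists of visceral endoderm (3459 to 4174 and 2334 to 3042 CPM), decidual mesenchyme (232 to 396 and 7.33 to 61.5 CPM), endothelium (267 to 596 and 156 to 232 CPM) and erythroid cells (0 to 10.6 and 10.7 to 25.7 CPM) also differed in range.

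**Figure D3:**
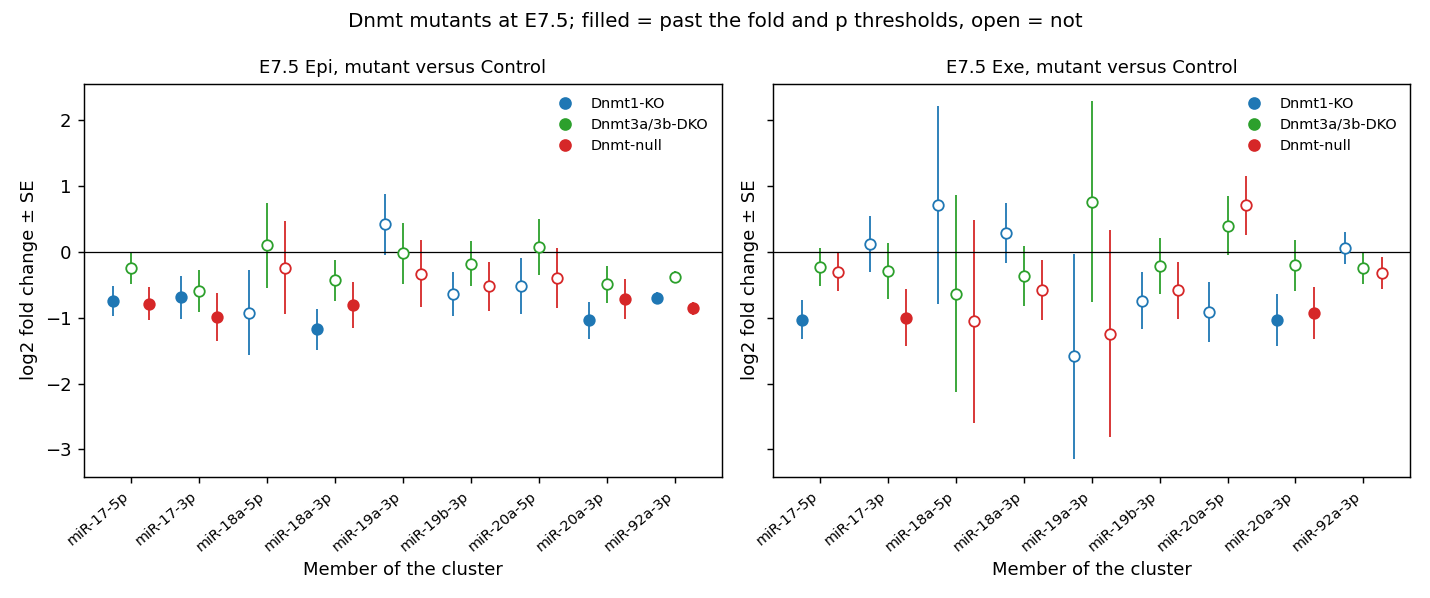
log2 fold changes with standard errors (y axis) of each member (x axis) for the 3 Dnmt mutants against Control at E7.5, with a panel each for Exe and Epi, filled where past the fold and p thresholds. In Epi 5 members are filled below 0 for Dnmt-null and 5 for Dnmt1-KO, and 0 for Dnmt3a/3b-DKO, under TMM scaling on all miRNAs.

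Fewer members were called in E7.5 Exe. mmu-miR-17-5p measured 844, 606, 791 and 993 CPM in Control and 258, 204, 587 and 497 CPM in Dnmt1-KO, without overlap (-1.03 ± 0.29, SE, adjusted p = 0.0465). mmu-miR-20a-3p measured 309, 350.2, 304 and 431 CPM in Control and 77.6, 105, 218 and 268 CPM in Dnmt1-KO, without overlap, but passed only before adjustment (-1.04, adjusted p = 0.135). In Dnmt1-KO 2 of 9 were lower against 16.8%. In Dnmt-null mmu-miR-17-3p (-1.0) and mmu-miR-20a-3p (-0.93) were called, both with adjusted p = 0.167, so 2 of 9 against 19.4%, and both lost the call without Control 4 (-0.80 and -0.83) and without 1 Dnmt-null library each. The epiblast list in Exe was 33368 to 45944 CPM in Control, 10428 to 37250.2 CPM in Dnmt1-KO and 17252 to 27413 CPM in Dnmt-null, with none of its 5 miRNAs at 3 or fewer counts in every library. The trophoblast list was 40568 to 47732 CPM, 29490 to 43706 CPM and 31578 to 56171 CPM. Between Control and Dnmt-null the erythroid list (78.1 to 222 and 16.6 to 33.8 CPM) did not overlap. The endothelium (1350.5 to 3075 and 191 to 2359 CPM) and decidual mesenchyme lists (264 to 862 and 210 to 390 CPM) overlapped, as did those of visceral endoderm and embryonic stem cells. The part of these lists was not tested. Dnmt3a/3b-DKO had 0 of 9 by edgeR or DESeq2 against 8.21%, with 0 at an unadjusted p under 0.05.

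In the same Exe samples mmu-miR-92a-3p measured 44992, 43174, 54751 and 95549.5 CPM in Dnmt-null. Replicate 4 was above every Control library and the others below (-0.33 ± 0.24, SE, adjusted p = 0.526). Without replicate 4 it was -0.80 and called. The log2 ratio of mmu-miR-20a-3p to mmu-miR-20a-5p was 0.48 ± 0.54 (SD, n = 4) in Control and -1.08 ± 0.56 (SD, n = 4) in Dnmt-null, without overlap. It was the 1 of 40 Dnmt-null ratios whose groups did not overlap (exact permutation p = 0.0286, adjusted p = 0.667). In E7.5 Epi, with 3 libraries a group, the smallest p of this test was 0.1, so no ratio there could pass.

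At E6.5 few calls were made. In Exe mmu-miR-18a-5p and mmu-miR-19a-3p fell below the count minimum, and 7 members were tested. mmu-miR-18a-3p measured 395, 144, 44.5 and 275 CPM in Control, 105, 43.0, 0 and 42.4 CPM in Dnmt1-KO and 30.1, 81.6, 13.3 and 63.2 CPM in Dnmt-null. Control replicate 3 lay inside the range of both mutants, and the calls (-2.28, adjusted p = 0.403, and -2.37, adjusted p = 0.275) did not pass adjustment. mmu-miR-92a-3p was called in Dnmt-null (-0.55, adjusted p = 0.204). Dnmt1-KO had 1 member called against 8.78%, Dnmt-null 2 against 13.0%, and Dnmt3a/3b-DKO 0 by edgeR or DESeq2 against 9.04%, with 0 at an unadjusted p under 0.05. Without E6.5 Exe Control 1, which stood apart at 65751 counts, none of the 3 calls was left (mmu-miR-18a-3p -1.83 and -1.93, mmu-miR-92a-3p -0.40), and each also ended without 1 of several other libraries. Without all libraries that stood apart mmu-miR-18a-3p was -1.37 in Dnmt1-KO and mmu-miR-92a-3p -0.28 in Dnmt-null, neither called, while mmu-miR-18a-3p was still called lower in Dnmt-null. The share of called miRNAs that were higher in Dnmt-null moved from 38.8% to 63.3% without Dlk1-Dio3 in the scaling.

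In E6.5 Epi 0 of 9 passed in any mutant by edgeR, against 12.0% (Dnmt1-KO), 14.9% (Dnmt3a/3b-DKO) and 25.9% (Dnmt-null). 1 estimate had an unadjusted p under 0.05, mmu-miR-92a-3p in Dnmt3a/3b-DKO (0.43, adjusted p = 0.260), and DESeq2 called 1 member, mmu-miR-18a-5p in Dnmt-null (-1.89). Without Dnmt3a/3b-DKO 2, which stood apart, mmu-miR-92a-3p in Dnmt3a/3b-DKO was at 0.51 and called. For Dnmt-null the same-numbered libraries deviated together in all 4 pairs. With the replicate number as a block mmu-miR-17-5p was called there at -0.94, against -0.88 and no call without the block.

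The mutants were then set against each other. Dnmt-null against Dnmt1-KO gave 0 members in E6.5 Exe (background 3.72%), 0 for E6.5 Epi (18.1%) and 0 for E7.5 Epi (20.1%), and no estimate in these had an unadjusted p under 0.05. DESeq2 called 3 over all tissues and stages. edgeR gave 3 at E7.5 in Exe (14.9%), where mmu-miR-20a-5p (1.62, adjusted p = 0.0899) and mmu-miR-17-5p (0.73, adjusted p = 0.228) were higher and mmu-miR-17-3p lower (-1.12, adjusted p = 0.214). The mmu-miR-17-5p call ended without Dnmt1-KO 1 or 2 or Dnmt-null 1 or 2 (0.51 to 0.68), and the mmu-miR-17-3p call without Dnmt1-KO 1 (-0.78). Without Dnmt-null 4, mmu-miR-18a-3p (-1.42) and mmu-miR-92a-3p (-0.84) were called lower. Without Dnmt1-KO 4, mmu-miR-18a-3p (-1.02) was called lower and mmu-miR-19a-3p higher. Dnmt-null against Dnmt3a/3b-DKO gave 0 members at E6.5 in either tissue (1.60% of all miRNAs called for Exe, 15.6% for Epi) or in Exe at E7.5 (9.55%), with 0 at an unadjusted p under 0.05, and 1 in Epi at E7.5 (21.3%). DESeq2 called 0 in all of these. The 1 call was mmu-miR-17-5p (-0.54, adjusted p = 0.162), which ended without any 1 of 5 libraries and was at -0.27 without Dnmt3a/3b-DKO 1. mmu-miR-92a-3p there was -0.47 ± 0.09 (SE, adjusted p = 0.00178), under the fold threshold, and the share of called miRNAs that were higher there moved from 36.7% to 67.1% without Dlk1-Dio3 in the scaling. In E6.5 Epi mmu-miR-92a-3p was called without the libraries that stood apart (-0.56 against -0.33 with them), as was mmu-miR-18a-3p (-1.03 against -0.46).

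Whether the Dnmt-null change differed between Epi and Exe was tested as an interaction by edgeR. 0 members passed at E6.5 (18.1% of all miRNAs) or E7.5 (13.4%), and 0 had an unadjusted p under 0.05, while DESeq2 called 2 at E6.5, mmu-miR-18a-3p (2.16) and mmu-miR-92a-3p (0.76). The median of all miRNAs at E6.5 moved from -0.68 with TMM to -0.13 with DESeq2, and the share of called miRNAs that were higher from 30.3% to 72.4%. For mmu-miR-92a-3p at E7.5 the interaction was -0.57 ± 0.29 (SE, adjusted p = 0.404), so with all libraries its Dnmt-null change in Epi was not shown to differ from that in Exe. Without E7.5 Exe Dnmt-null 1 the interaction was -0.83 and called.

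In the stem cells and SC embryos the strands of miR-20a stood at different levels. In WT AG-haESCs mmu-miR-20a-5p measured 2085, 1900.4 and 1893 CPM and mmu-miR-20a-3p 70.5, 52.4 and 38.8 CPM, a mean log2 ratio of 3p to 5p of -5.22 ± 0.36 (SD, n = 3). It was -5.18 in O48 and -5.62 in 408. In the SC groups it lay between -0.94 and -0.26, and in the dissected Control groups between -1.73 and 0.48. E6.5 WT SC embryos were set against WT AG-haESCs, the cells they were made with. mmu-miR-20a-5p was lower in the SC embryos, at 464, 396 and 945 CPM (-2.22 ± 0.45, SE, adjusted p = 0.00706), and mmu-miR-20a-3p higher, at 373, 375 and 174 CPM (1.95 ± 0.44, SE, adjusted p = 0.0113). Neither strand overlapped between cells and embryos.

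mmu-miR-17-5p (-0.83), mmu-miR-17-3p (-1.57) and mmu-miR-19a-3p (-1.17) were also called lower in the SC embryos, with adjusted p of 0.104, 0.0732 and 0.104, and each lost the call without any 1 AG-haESC WT library. Without Dlk1-Dio3 in the scaling the median of all miRNAs moved from -0.28 to 0.18 and the share of called miRNAs that were higher from 41.2% to 53.3%. In all 5 of 9 were called against 47.1% of all miRNAs. mmu-miR-92a-3p, at 21667, 20642 and 22297 CPM in the cells and 43927, 47941 and 34695 CPM in the embryos, did not overlap but did not pass (0.42, adjusted p = 0.239). It was called higher in the embryos by DESeq2 (0.50) and without Dlk1-Dio3 in the scaling (0.89).

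**Figure D4:**
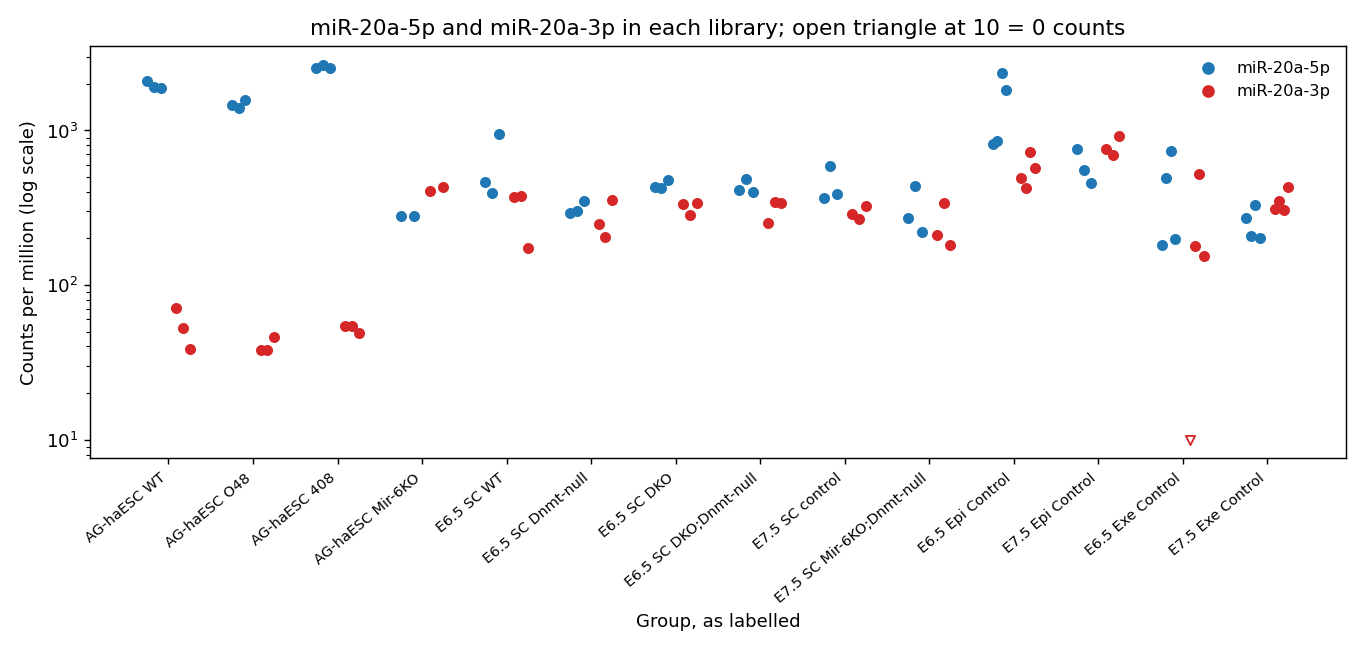
Counts per library scaled to CPM on a log scale (y axis) of mmu-miR-20a-5p and mmu-miR-20a-3p in every library of the groups named on the x axis, with an open triangle for a library at 0 counts. In the WT, O48 and 408 AG-haESCs the 3p strand lies between 37.8 and 70.5 CPM and the 5p strand between 1406 and 2665 CPM, while in most embryo groups the strands lie near each other.

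O48 had 0 of 9 members called against WT by edgeR, where 20.7% of all miRNAs were called. 1 member had an unadjusted p under 0.05, mmu-miR-20a-5p at 1452, 1406 and 1574 CPM in O48 (-0.38 ± 0.11, SE, adjusted p = 0.0565), under the fold threshold, and DESeq2 called 1 member, mmu-miR-18a-3p (0.85). The median of all miRNAs was -0.28 with TMM and 0.09 with DESeq2 scaling, and the share of called miRNAs that were higher 20.6% and 48.3%. The libraries labelled Mir-6KO AG-haESC had mmu-miR-20a-5p at 281 and 281 CPM, mmu-miR-20a-3p at 403 and 429 CPM and mmu-miR-92a-3p at 97470.2 and 98896 CPM. In O48 these lay at 1406 to 1574, 37.8 to 46.3 and 18438 to 22380 CPM. The fitted differences were -2.90 ± 0.13, 2.85 ± 0.32 and 1.76 ± 0.11 (SE), with adjusted p = 1.11e-06, 0.000180 and 4.51e-06. With mmu-miR-18a-5p (-1.39, adjusted p = 0.0797, a call that ended without any 1 O48 library) 4 of 9 members were called against 59.0%. The miR-302/367 sum of these 2 libraries lay above the 202279 to 212606 CPM of E7.5 Epi Control and far above that of O48. The deletions and the kind of cells therefore cannot be told apart.

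In E6.5 SC embryos DKO;Dnmt-null was compared with DKO. mmu-miR-17-5p measured 809, 866 and 788 CPM in DKO and 489.6, 463 and 471 CPM in DKO;Dnmt-null, without overlap (-0.89 ± 0.10, SE, adjusted p = 1.22e-06). mmu-miR-92a-3p measured 44199, 45678 and 44640.1 CPM in DKO and 27247, 35508 and 33801 CPM in DKO;Dnmt-null (-0.58 ± 0.11, SE, adjusted p = 0.000299). mmu-miR-17-3p fell from 150.2, 133 and 136 CPM to 68.8, 119 and 66.7 CPM (-0.96 ± 0.22, SE, adjusted p = 0.00212). mmu-miR-19a-3p (-0.91, adjusted p = 0.00894) and mmu-miR-19b-3p (-0.58, adjusted p = 0.00621) also fell, and for all 5 the groups did not overlap.

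That made 5 of 9 lower and 0 higher, against 31.0% of 603 miRNAs, with a member median of -0.58 beside -0.05. Both strands of miR-18a (-0.39 for 5p and -0.27 for 3p) and of miR-20a (-0.17 and -0.20) did not pass. Without DKO;Dnmt-null 1, mmu-miR-19b-3p (-0.41) and mmu-miR-92a-3p (-0.46) were under the fold threshold. The DKO;Dnmt-null counts were deposited in a table of their own, so that table and genotype cannot be told apart. The epiblast list moved too, at 177971 to 196784 CPM in DKO and 130119 to 147052 CPM in DKO;Dnmt-null. The lists of trophoblast (15875 to 17832 and 18975 to 23737 CPM), visceral endoderm (1592 to 1953 and 2540 to 3505 CPM) and erythroid cells (10.7 to 14.4 and 51.2 to 79.2 CPM) were higher without overlap. So was that of decidual mesenchyme, while endothelium was lower without overlap and the stem cell list overlapped. The part of these lists in the members' values was not tested.

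Against SC WT, Dnmt-null had 2 members called against 18.9%. mmu-miR-19a-3p was higher (44.4, 32.5 and 19.4 CPM in WT, 77.9, 113 and 49.5 CPM in Dnmt-null, 1.01, adjusted p = 0.263), and mmu-miR-20a-5p was lower (464, 396 and 945 CPM in WT, 292, 302 and 351 CPM in Dnmt-null, -1.32, adjusted p = 0.196). Neither overlapped, and both calls ended without Dnmt-null 2 (0.80 and -1.16). The trophoblast list was 3198 to 11405 CPM in SC WT, 14842 to 43445 CPM in SC Dnmt-null and 15875 to 17832 CPM in SC DKO, and the epiblast list 21252 to 214514, 82565 to 122808 and 177971 to 196784 CPM. Their part in these calls was not tested. Without SC WT 3, the library that differed from its group, 4 members were called lower, with mmu-miR-17-5p (-0.60), mmu-miR-19b-3p (-0.80) and mmu-miR-20a-3p (-0.68) added and mmu-miR-19a-3p (0.81) lost. SC DKO against WT had 1 called against 13.0%, mmu-miR-19a-3p (1.13, adjusted p = 0.286), which lost the call without WT 2 or any 1 DKO library. At E7.5, Mir-6KO;Dnmt-null against control had 0 of 9 by edgeR or DESeq2 against 10.8%, with 0 at an unadjusted p under 0.05, and mmu-miR-20a-5p was -0.73 (adjusted p = 0.523). Without Mir-6KO;Dnmt-null 2, mmu-miR-20a-5p (-1.16) and mmu-miR-20a-3p (-0.88) were called.

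The paralogous clusters carry seeds of the same families. Of 16 mature miRNAs of the miR-106a-363 and miR-106b-25 clusters, 13 were tested in Control embryos. For Exe over Epi 9 were lower and 0 higher at E6.5 (median -2.85, against 39.6% called of all miRNAs), and 11 lower and 0 higher at E7.5 (median -2.51, against 40.5%), beside member medians of -1.37 and -1.05. mmu-miR-106a-5p and mmu-miR-20b-5p, with the seed of mmu-miR-17-5p, were -4.05 and -3.71 at E6.5 and both -3.18 at E7.5. mmu-miR-363-3p, with the seed of mmu-miR-92a-3p, was -3.27 and -2.73. In E7.5 Epi Dnmt-null 6 of 14 were lower, a share near the 40.5% of all miRNAs called, among them mmu-miR-25-3p (-0.71) and mmu-miR-106b-5p (-1.49), while mmu-miR-106a-5p (0.44), mmu-miR-20b-5p (-0.09) and mmu-miR-363-3p (-0.18) did not pass. In SC DKO;Dnmt-null against DKO 7 of 13 were lower, against 31.0%.

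Of the 3 remaining strands of the cluster itself, 2 were tested in Control, and 0 passed for Exe over Epi at either stage. mmu-miR-92a-1-5p, the partner strand of mmu-miR-92a-3p, measured 166 to 186 CPM in E7.5 Epi Control and 67.8 to 242 CPM in Dnmt-null (-0.60, adjusted p = 0.380). mmu-miR-19b-1-5p measured 4.79 to 25.3 CPM (9 to 41 counts) in E7.5 Epi Control and 0 counts in all 3 Dnmt-null libraries, which were shallower. There 0 counts allows 6.15 to 11 CPM (3 counts per library), above the lowest Control value, so although it was called lower no fold is given. mmu-miR-92a-1-5p was also called lower in SC DKO;Dnmt-null against DKO (-0.82, adjusted p = 0.00196) and in E7.5 SC Mir-6KO;Dnmt-null against control (-1.63, adjusted p = 0.00547).

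The 5 miRNAs whose pattern was most like the mean log2 CPM of the 9 members, by Pearson r over the 16 Exe and Epi group means among 649 others, were mmu-miR-302b-3p (0.954), mmu-miR-302d-3p (0.954), mmu-miR-302a-3p (0.948), mmu-miR-363-5p (0.946) and mmu-miR-135a-5p (0.946). Ranked by Spearman's rho, 2 of these 5 stayed among the first 5. The means share libraries and depth, and no test was made.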

How the data were processed

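Small RNA of dissected embryos and AG-haESCs was sequenced by CAS-seq (Cas9-assisted small RNA sequencing). Trimming by the authors used fastp 0.20.1 and alignment used Bowtie 1.2.1.1 (GRCm38, mature sequences of miRBase, 2 nt allowed at the 3′ end), and the authors deposited counts per mature miRNA. These counts were used as deposited. A second deposited table of counts holds the DKO;Dnmt-null SC libraries (miRNAs not listed there were taken as 0), and an earlier copy, with 2 columns of no sample and 7 libraries under other replicate numbers, was not used. CPM, percent shares and log2 fold changes were computed here. Tests used edgeR 4.0.16 in R 4.3.3 (quasi-likelihood, TMM, count minimum 10), with Benjamini-Hochberg adjustment over all miRNAs tested and the study's thresholds for calls. SE is the log2 fold change divided by the root of F. Control comparisons shared 1 model of the 4 Control groups and mutants 1 model per stage and tissue. The Epi against Exe tests of the Dnmt-null change used all 62 libraries. Ratios used a pseudocount of 0.5 counts and an exact two-sided permutation test. DESeq2 1.42.0, other scalings and filters, the replicate block and omission of libraries were alternatives. Leaving out libraries that stood apart was chosen after seeing the data. Scripts were tested on simulated data.

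The members and lists were chosen with earlier results of these data known. All 9 members were named throughout, paralogs by shared seed, and the 5 miRNAs most like the members' mean log2 CPM by r. No labels say that replicates came from separate cultures or litters, so p-values measure the spread between these libraries only. No 2 replicates agreed within sampling noise (118 pairs, lowest chi-square per degree of freedom 4.77). Of 31 comparisons, same-numbered libraries deviated together in every pair (r over 0.1) in 1, E6.5 Epi Dnmt-null against Control. A low total count means more counting error, and intervals were not built on reads without molecular identifiers.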

Additional observations from a re-analysis of the deposited data

Results flagged for a closer look

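In 140 groups of member values of 4 libraries each, 11 single values lay far from the others of their group by Dixon's test, where chance gives about 1 in 20. At E6.5 these were mmu-miR-17-5p in Exe Control 1 (502 CPM, the others 971 to 1048), mmu-miR-17-3p in Exe Dnmt-null 3 (227 CPM, others 48.9 to 63.2) and in Epi Dnmt3a/3b-DKO 2 (39.4 CPM, others 278 to 324), mmu-miR-18a-5p in Epi Dnmt1-KO 4 (123 CPM, others 26.2 to 41.7) and in Epi Dnmt3a/3b-DKO 2 (0 CPM, others 79.7 to 90.3), mmu-miR-19a-3p in Exe Control 2 (122 CPM, others 0 to 19.8), mmu-miR-20a-3p in Exe Dnmt3a/3b-DKO 4 (447 CPM, others 175 to 212), mmu-miR-92a-3p in Epi Dnmt-null 1 (123293 CPM, others 74263 to 79241), and the share of all members in that same library (12.5%, others 7.91% to 8.29%). At E7.5 they were mmu-miR-19a-3p in Exe Dnmt1-KO 4 (37.9 CPM, others 0 to 1.02) and mmu-miR-92a-3p in Epi Dnmt3a/3b-DKO 1 (131401 CPM, others 121746 to 123214). 5 of the 11 values came from libraries that stood apart.

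The Exe over Epi difference of mmu-miR-92a-3p changed between E6.5 and E7.5 by -0.73 on the log2 scale in the interaction test, a call that was lost (-0.13) when the scaling left out the Dlk1-Dio3 miRNAs. In the 408 AG-haESCs, which entered no comparison, every library was above every WT library for mmu-miR-17-5p (lowest 941 CPM), mmu-miR-20a-5p (lowest 2539 CPM) and mmu-miR-92a-3p (lowest 27279.8 CPM), against highest WT values of 848, 2085 and 22297 CPM.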

How the results depend on the processing

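Of 296 member values, 51 were called. None of these reversed in any alternative, and 18 passed in all of them. Among the 245 not called, 94 changed sign and 54 passed in at least 1 alternative. The numbers of members called that changed by over 1.5 times follow, each against its reported number. By adjusted p, E7.5 Exe over Epi went from 5 to 3, E7.5 over E6.5 in Epi from 3 to 1, E6.5 Exe Dnmt1-KO from 1 to 0, E6.5 Exe Dnmt-null from 2 to 0, Dnmt-null over Dnmt1-KO (all tissues and stages) from 3 to 0, Dnmt-null over Dnmt3a/3b-DKO from 1 to 0, E7.5 Exe Dnmt1-KO from 2 to 1, E7.5 Exe Dnmt-null from 2 to 0, E7.5 Epi Dnmt-null from 5 to 3, SC Dnmt-null from 2 to 0, SC DKO from 1 to 0 and WT SC over AG-haESC from 5 to 2. TMM without Dlk1-Dio3 miRNAs gave E7.5 Exe over Epi 3, E7.5 Epi Dnmt1-KO 2, E7.5 Epi Dnmt-null 1, WT SC 3, and 1 each for the Dnmt-null groups of E6.5 and E7.5 Exe. RLE scaling and DESeq2 both gave 1 for E6.5 Exe Dnmt-null, 0 for Dnmt-null over Dnmt3a/3b-DKO, 2 (from 0) for the Dnmt-null change in Epi over Exe and 1 (from 0) for O48. RLE also gave E7.5 Epi Dnmt-null 3, SC Dnmt-null 1 and WT SC 3, and DESeq2 gave E6.5 Epi Dnmt-null 1 (from 0). With no count filter, E6.5 Epi Dnmt-null gave 2, and 1 came from E6.5 Exe Dnmt-null, E7.5 Exe Dnmt-null, the Dnmt-null change in Epi over Exe and SC Dnmt-null. With a mean of at least 10 counts, E6.5 Exe Dnmt1-KO gave 2, E7.5 Epi Dnmt-null and WT SC 3 each, and E6.5 Epi Dnmt3a/3b-DKO, the Dnmt-null change in Epi over Exe and SC Dnmt-null 1 each. Both filters and TMM without Dlk1-Dio3 gave 0 for Dnmt-null over Dnmt3a/3b-DKO. Fitting only the groups compared gave 6 for stage in Epi, 2 for the Dnmt-null change in Epi over Exe, 1 each for E6.5 Exe Dnmt-null, Dnmt-null over Dnmt1-KO, E7.5 Epi Dnmt3a/3b-DKO, O48 and SC Dnmt-null, and 0 for E6.5 Exe Dnmt1-KO and for Dnmt-null over Dnmt3a/3b-DKO. The model of all 62 libraries gave 1 for stage in Epi. The cause of these changes was not tested.

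The replicate block, where numbers are names only in all but the E6.5 Epi Dnmt-null comparison, gave 1 member each for E6.5 Epi Dnmt-null, E6.5 Exe Dnmt-null, E7.5 Exe Dnmt-null, E7.5 Epi Dnmt3a/3b-DKO (mmu-miR-20a-3p, -0.67), SC Dnmt-null and E7.5 SC (mmu-miR-20a-5p, -0.80), and 3 for WT SC. Same-numbered r ranged from -0.311 to 0.527 over 31 comparisons. Without the libraries that stood apart, E7.5 over E6.5 in Exe gave 1 (mmu-miR-92a-3p, 0.50), E6.5 Exe Dnmt1-KO 0 and Dnmt-null 1, and Dnmt-null over Dnmt3a/3b-DKO 3. Leaving out 1 library gave ranges of 2 to 7 (E7.5 Exe over Epi), 1 to 3 (stage in Epi), 0 to 1 (stage in Exe, E6.5 Epi and E7.5 Epi Dnmt3a/3b-DKO), 0 to 2 (both E6.5 Exe mutants called, E6.5 Epi Dnmt-null, the Dnmt-null change in Epi over Exe, SC DKO and E7.5 SC), 1 to 5 (Dnmt-null over Dnmt1-KO, and Dnmt-null ratios), 0 to 4 (Dnmt-null over Dnmt3a/3b-DKO, E7.5 Exe Dnmt-null, SC Dnmt-null), 2 to 4 (E7.5 Exe Dnmt1-KO), 2 to 5 (E7.5 Epi Dnmt-null and WT SC) and 3 to 5 (DKO;Dnmt-null). The members' share in E7.5 Epi Control was 18.2% instead of 15.7% of a total without Dlk1-Dio3 miRNAs, and of the 5 most alike miRNAs 2 stayed by Spearman's rho and 3 by RLE. Where 1 Mir-6KO library was left out, the lone library was assumed to vary like the other groups. Low counts limit mmu-miR-18a-5p and mmu-miR-19a-3p most, and not only in shallow libraries. mmu-miR-18a-5p had 0 counts in E7.5 SC control 3 (total 13306003), and mmu-miR-19a-3p 0 in E7.5 SC Mir-6KO;Dnmt-null 1 (total 9267285).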
